A study of Oryza sativa Indica Group with 2 samples.

Results

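Of 10 stress and defence WRKY genes looked for, 4 were called different in messenger RNA between chilled leaves of 2 indica rice genotypes. Each genotype had 1 pooled library. Of all models the authors tested, 8.61% were called, a share by model and not by locus. All 4 genes had the lower level in the same library under the authors' scaling, as had 58.6% of all loci called. WRKY53 turned the other way when the ratios were centred on the median of the called models. The members are 10 rice loci, WRKY13, WRKY24, WRKY28, WRKY45, WRKY53, WRKY62, WRKY70, WRKY71, WRKY72 and WRKY76, looked up by locus identifier in a table of the authors' own comparison. That table holds 3946 loci in all. Of the 10 loci, 4 were found there with 7 coding-sequence models, namely WRKY76 (LOC_Os09g25060), WRKY71 (LOC_Os02g08440), WRKY53 (LOC_Os05g27730) and WRKY45 (LOC_Os05g25770). The other 6 were absent, namely WRKY13 (LOC_Os01g54600), WRKY24 (LOC_Os01g61080), WRKY28 (LOC_Os06g44010), WRKY62 (LOC_Os09g25070), WRKY70 (LOC_Os05g39720) and WRKY72 (LOC_Os11g29870).

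WRKY proteins are a plant family of transcription factors named after the amino acids that open their DNA-binding domain. They bind the W-box, a short element with the core TTGAC, in promoters of defence and stress genes, among them promoters of WRKY genes themselves, so that family members activate or repress each other. In rice leaves they are best known for resistance to blast fungus and bacterial blight, and several have also been tied to cold, drought and hormone responses.

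The libraries came from a pair of IRGA breeding lines, whose names share a stem and end in A for the line called cold-tolerant and in CA-1 for the line called cold-sensitive. Seedlings of both lines, about 20 days old and with 3 leaves, spent 6 h at 10 °C in light of 40 µmol m-2 s-1, and leaves of 9 plants were pooled for each of the 2 libraries. No unchilled plants were among the samples, so a difference is one between chilled genotypes and not a response to cold, and no value has a replicate. Nothing in the table or the labels ties the sign of its ratio to a line. The upper term of the ratio is therefore called library A and the lower term library B, with no genotype given to them.

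Reads of each library were recovered from the table. The scaled library sizes were 12846997 reads for A and 12152372 for B. RPM, the unit of all levels here, is a read number scaled to a common library size. Levels are not corrected for the length of a model, so they compare libraries and not genes. Ratios are on the log2 scale with A over B, so a negative value means a lower level in A, and they stand with 95% exact intervals that cover counting error only. The spread between plants is not in these intervals. The leaf genes RCA, CAB2R and RBCS were abundant in both libraries, with 27181, 936 and 2886 RPM in A and 28822, 2209 and 6588 RPM in B. Fewer cells of a type and less RNA per cell cannot be told apart in whole leaves.

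By the relation of p to adjusted p, the authors tested 67393 models, and 8.61% of them are in the table because their adjusted p was under 0.05. The share higher in library A was 3.47% of the models tested and the share higher in B 5.14%. The 4 of 10 loci found here are counted by locus, a locus with several models can enter through any of them, and the number of loci tested is not given in the sources used here, so these shares are not like for like. Among all 3946 loci of the table, 1634 were higher in A and 2312 (58.6%) higher in B, or 1964 and 1982 after centring. Of the 4 WRKY loci found, 0 were higher in A and 4 higher in B, or 1 and 3 after centring.

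WRKY28, WRKY62, WRKY71 and WRKY76 form subgroup IIa of the family, whose proteins in rice act largely as repressors of defence genes, although WRKY71 has also been tied to stronger resistance. Of these 4 genes, 2 were in the table. WRKY76 encodes a repressor whose overexpression in rice lowered blast resistance and raised cold tolerance. It had 37 reads in library A, or 2.88 RPM (2.03 to 3.97), against 84 reads in library B, or 6.91 RPM (5.51 to 8.56). The counting intervals of the libraries did not overlap. Entry into the table by adjusted p made this likely beforehand, here and for the other genes found, so it is no separate support. The log2 ratio was -1.26 (-1.86 to -0.69), which is a level 2.40-fold higher in B. It had the fewest reads of the 4 genes and the widest interval, with the bound nearest to 0 at -0.69.

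WRKY71, which was tied to defence signalling, to cold tolerance and to the repression of gibberellin-responsive genes in the grain, was the only one of the 4 genes with several models in the table. Model 1 had 1770 reads in library A, or 138 RPM (131 to 144), against 2317 reads in library B, or 191 RPM (183 to 199). Model 2 had 1604 reads in A and 2090 in B, model 3 had 1131 in A and 1547 in B, and model 4 had 1335 in A and 1700 in B. Each model was lower in A than in B, and in none did the intervals of the libraries overlap. The log2 ratios were -0.47 (-0.56 to -0.38) for model 1, -0.46 for model 2, -0.53 for model 3 and -0.43 for model 4. They spanned 0.10 on the log2 scale, and their intervals shared the range from -0.53 to -0.42. The 4 models lie at 1 locus and can count the same reads, so they are not 4 measurements. Model 3, with the fewest reads, held 63.9% of the reads of model 1 in library A and 66.8% in library B.

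WRKY53 belongs to group I, whose proteins carry a pair of WRKY domains, and of the 3 listed genes of that group (WRKY24, WRKY53 and WRKY70) it was the only one found. The protein is a target of the mitogen-activated kinases of defence, and in rice it also takes part in brassinosteroid signalling. WRKY53 had 3221 reads in library A, or 251 RPM (242 to 260), against 3571 reads in library B, or 294 RPM (284 to 304). Its log2 ratio of -0.23 (-0.30 to -0.16) was the smallest of the 4 in size. Its direction depended on where 0 was set. Every ratio of the table shifts by 0.30 when the ratios are centred on their median. WRKY53 then stood at 0.075, higher in A. That median covers only models called different, so it need not mark equal levels in the libraries. With the table's own totals WRKY53 stood at -0.028, lower in A.

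WRKY45 is a group III gene induced by salicylic acid and a main regulator of chemically induced blast resistance, with alleles that differ between japonica and indica rice. It had 319 reads in library A, or 24.8 RPM (22.2 to 27.7), against 488 reads in library B, or 40.2 RPM (36.7 to 43.9). The intervals of the libraries did not overlap, and the log2 ratio was -0.69 (-0.90 to -0.49). A locus on chromosome 12, LOC_Os12g12170, had read numbers within 1% of these in both libraries, 317 in A and 487 in B. The other 3 genes had no such partner in the table, while 1427 of its 3946 loci had one. Whether WRKY45 shares reads with that locus was not tested.

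**Figure D1:**
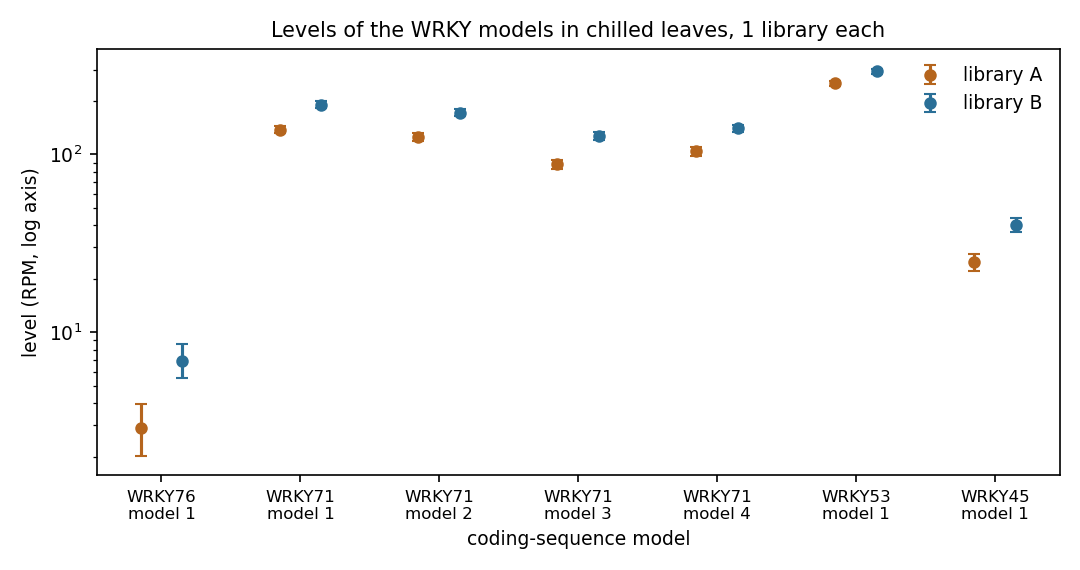
Levels of the 7 WRKY models in the table in RPM on a log axis, with library A left of library B for each model; points are single libraries and bars are 95% exact Poisson intervals. In each of the 7 models the point of library A lies below that of library B, and the bars do not overlap. Entry into the table by adjusted p made such a gap likely beforehand. Centring on the median of the table would turn WRKY53 round.

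In order of their ratios, the genes ran from WRKY76 at -1.26 through WRKY45 at -0.69 and WRKY71 at -0.47 to WRKY53 at -0.23. The intervals of WRKY76 and WRKY45 overlapped, as did those of WRKY45 and WRKY71. Overlap alone does not decide whether these neighbours in the order differ beyond counting error, and that was not tested. The intervals of WRKY71 and WRKY53 did not overlap. WRKY76 alone had an absolute log2 ratio of at least 1, a size that 27.2% of the loci in the table reached; models in the table with a ratio of that size made up 2.02% of the models tested, and the ratios of models outside the table are not known. The median over the 4 WRKY genes was -0.58, against -0.31 over the 3846 loci read in both libraries. In edgeR's comparison, the authors' deposited table gave adjusted p-values of 1.59e-04 for WRKY76, 9.56e-10 for WRKY45, 5.88e-23 for model 1 of WRKY71 and 3.06e-09 for WRKY53. The unadjusted p-values of the 7 models were 0.93 to 1.63 times an exact binomial p from the recovered reads and so hold counting error and little else.

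The size of a ratio that the table could hold depended on the reads behind it. Ranks by size in this paragraph count models, the gene's own included. They rest on the authors' scaling and were not redone after centring, which moves every ratio by 0.30. Among the 145 models with reads within 10% of the 121 of WRKY76, the smallest absolute log2 ratio was 0.75 and the median 1.13, and WRKY76 exceeded 62.8% of them in size. Among the 290 models with reads within 10% of the 807 of WRKY45, the smallest was 0.29 and the median 0.44, and WRKY45 exceeded 80.7% of them in size. For the 4087 reads of WRKY71 the smallest was 0.14 and the median 0.27, and WRKY71 exceeded 78.7% of the 150 models of like reads. For the 6792 reads of WRKY53 the smallest was 0.11 and the median 0.31, and WRKY53 exceeded 32.5% of the 114 models of like reads. A weakly read WRKY gene could thus differ between the libraries and still be absent. The absence of WRKY13, WRKY24, WRKY28, WRKY62, WRKY70 and WRKY72 does not show that their levels were alike, and their reads were not analysed here.

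**Figure D2:**
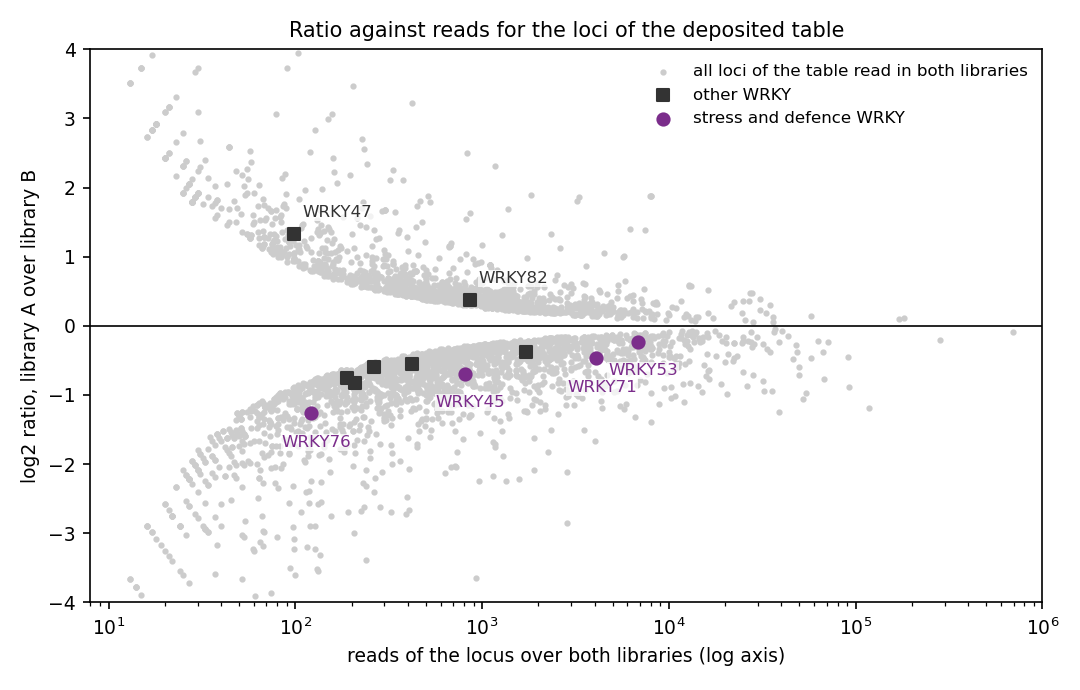
Log2 ratio of library A over library B against the reads of a locus over both libraries (log axis), for the 3846 loci of the table read in both; 34 loci lie beyond the axis limit of 4. The empty wedge around 0 is where the authors' threshold left no loci, and it narrows with more reads; WRKY76 lies at 121 reads and WRKY53 at 6792, and all 4 lie below 0 under the authors' scaling, from which centring moves WRKY53 to 0.075.

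WRKY13, which was tied to salicylate-dependent resistance and to the repression of jasmonate genes, WRKY72, tied to weaker resistance to bacterial blight, and WRKY70, tied to defence against chewing insects, were among the 6 absent genes. WRKY24, a repressor of hormone responses in the grain, and WRKY28, a repressor of blast resistance, were absent too. WRKY62, another repressor of defence, is the direct neighbour of WRKY76, with 0 genes between them in the RefSeq annotation. Of this pair, WRKY76 was in the table and WRKY62 was not.

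Of 51 other WRKY loci listed, 8 were in the table, 3 higher in library A and 5 higher in library B. That is 62.5% higher in B, near the 58.6% of all loci in the table, and centring left the counts at 3 and 5. As with the members, the share of listed loci found has no like share over all loci beside it, and this holds for the signalling and output loci too. WRKY80, the most read of them, had 768 reads in A and 945 in B. Its log2 ratio was -0.38 (-0.52 to -0.24), and its 3 models had identical reads. The others lower in A were WRKY68 at -0.83 (-1.25 to -0.41), WRKY67 at -0.76 (-1.20 to -0.33), WRKY74 at -0.60 (-0.97 to -0.24) and WRKY7 at -0.55 (-0.83 to -0.26). These sizes lay between those of WRKY53 and WRKY76. WRKY47 went the other way, with 72 reads in A and 27 in B and a ratio of 1.33 (0.68 to 2.03). WRKY82 had 501 reads in A and 365 in B and a ratio of 0.38 (0.18 to 0.58). WRKY10 had 10 reads in A, or 0.778 RPM, and none in B. Set against a floor of 3 reads, or 0.247 RPM, for library B, the lower bound of its level made it at least 1.51-fold higher in A. With the 4 stress and defence genes, 12 of 61 listed WRKY loci were in the table, 3 higher in A and 9 higher in B, or 4 and 8 after centring. The other listed loci have no value here.

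Among 13 loci of the signalling that leads to defence WRKY genes, 4 were in the table, 1 higher in library A and 3 higher in library B, against 58.6% of all loci of the table higher in B. NPR1 (LOC_Os01g09800), the salicylate co-activator that in rice works in parallel to WRKY45, had 316 reads in A and 186 in B, which gave a log2 ratio of 0.68 (0.42 to 0.95). Its direction was opposite to that of WRKY45. PAD4 (LOC_Os11g09010), a lipase-like regulator of defence, had 1156 reads in A and 2258 in B and a ratio of -1.05 (-1.15 to -0.94), and -0.68 (-0.81 to -0.55) in its model 1. CEBiP (LOC_Os03g04110), the receptor of fungal chitin, stood at -0.89 (-1.11 to -0.66). MKK4 (LOC_Os02g54600), a kinase that activates the mitogen-activated kinases acting on WRKY53, had 648 reads in A and 884 in B and a ratio of -0.53 (-0.68 to -0.38). The receptor kinase CERK1, the kinase MPK3 and the chaperone partners RAR1 and SGT1 were among the 9 absent loci.

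Of 14 loci of defence output, 3 were in the table, 1 higher in library A and 2 higher in library B, again beside 58.6% over the table. CPS2 (LOC_Os02g36210), an enzyme at the start of phytoalexin synthesis in leaves, had 7 reads in A and 60 in B, which gave a log2 ratio of -3.18 (-4.55 to -2.05). PBZ1 (LOC_Os12g36880), a pathogenesis-related protein of the PR10 family, had 38 reads in A and 98 in B and a ratio of -1.45 (-2.03 to -0.89). PBZ1 has close copies in the genome, and how reads were split among copies is not given in the sources used here. AOS2 (LOC_Os03g12500), an enzyme of jasmonate synthesis, had 164 reads in A and 76 in B and a ratio of 1.03 (0.63 to 1.44). CPS2 and PBZ1 thus had the sign of the 4 stress and defence WRKY genes (of 3 after centring), and AOS2 had the opposite one. The other 11 loci, among them those listed for PR1a, PR1b, CPS4, KSL4 and KSL7, were absent.

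**Figure D3:**
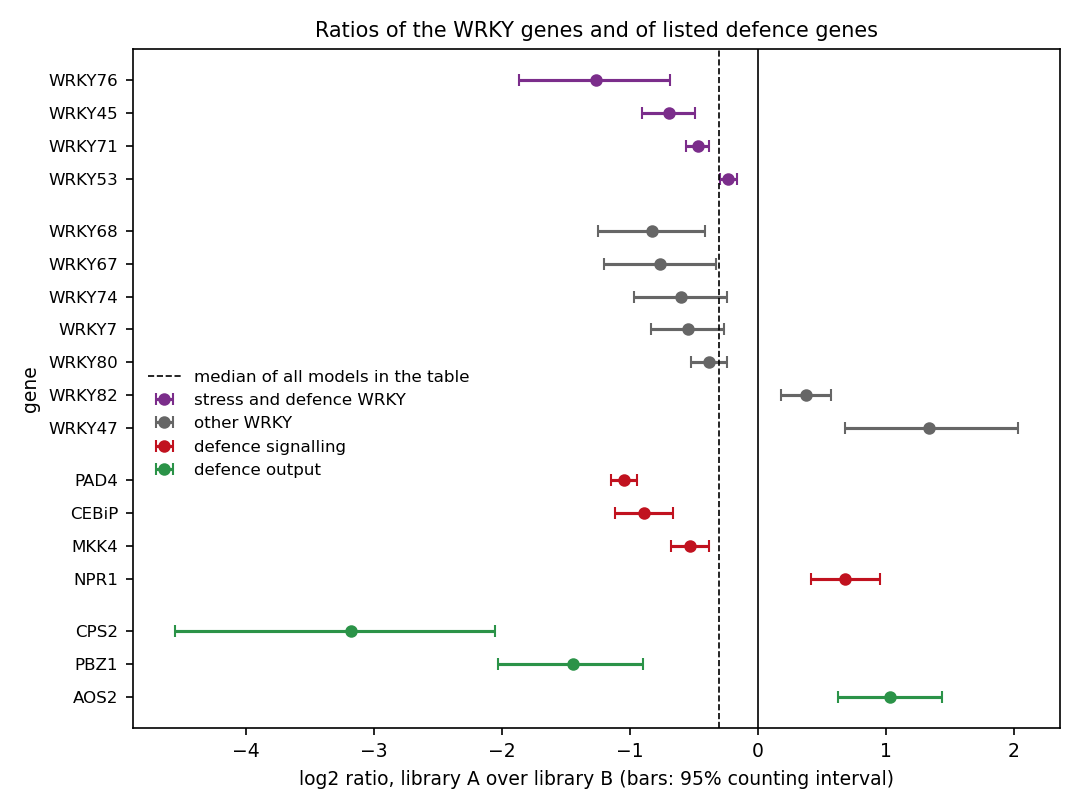
Log2 ratios of library A over library B, 1 model per locus, for the 4 stress and defence WRKY genes, 7 other WRKY genes, 4 signalling and 3 output genes read in both libraries; bars are 95% exact intervals for counting error, and the dashed line is the median of all models in the table, at -0.30. The 4 WRKY genes lie left of 0 and WRKY53 lies right of the dashed line, while WRKY47, WRKY82, NPR1 and AOS2 lie right of 0.

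Loci near the 4 genes lay on both sides of 0. Locus numbers order the loci of a chromosome and are no measure in base pairs. Within 500 locus numbers on either side the table held 32 loci, 15 higher in library A and 17 higher in library B, and 8 had an absolute log2 ratio of at least 1. These are 53.1% higher in B and 25.0% of that size, against 58.6% and 27.2% of all loci in the table, and centring made the counts 17 and 15. WRKY71, lower in A, had 5 such neighbours, 4 of them higher in A. WRKY53 had 7 neighbours, 4 higher in A and 3 higher in B (6 and 1 after centring), none of which differed by 1 log2 or more. WRKY45 had 6 neighbours, 2 higher in A and 4 higher in B, and 4 of the 6 differed by at least 1. WRKY76 had 14 neighbours, 5 higher in A and 9 higher in B, and 4 of them differed by at least 1. The nearest of these, LOC_Os09g25150, had 563 reads in A and 683 in B and a ratio of -0.36 (-0.52 to -0.20), smaller in size than that of WRKY76. Without loci whose read numbers lay within 1% of another's in both libraries, the 32 neighbours became 18, with 9 on either side. In the whole table, 1427 of 3946 loci had such a match.

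**Figure D4:**
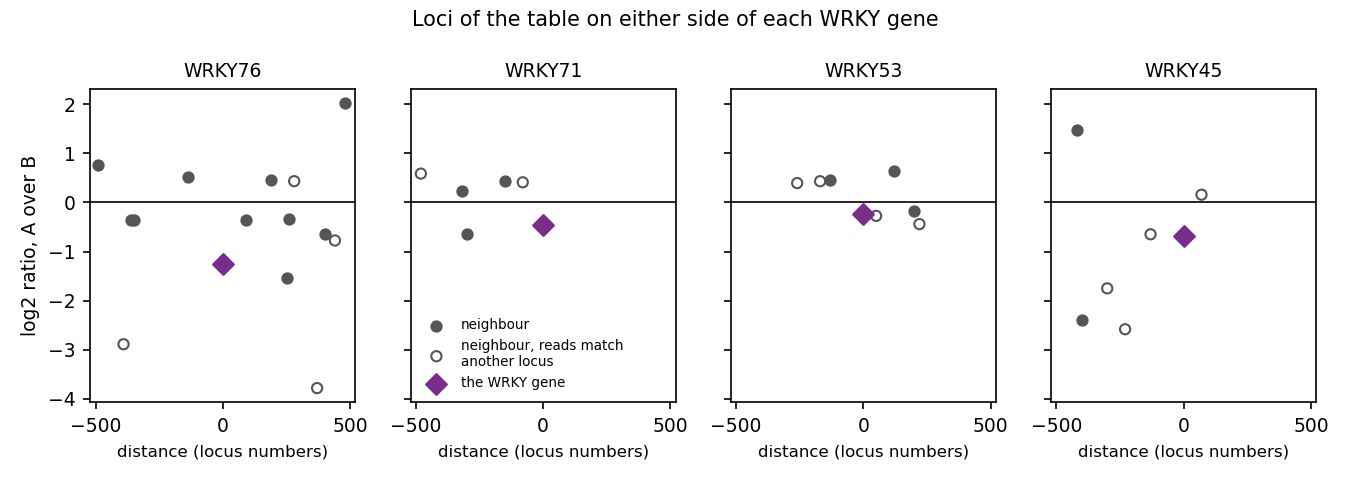
Log2 ratio of library A over library B of the loci of the table within 500 locus numbers of each of the 4 WRKY genes, by distance in locus numbers; open circles are neighbours whose reads match those of another locus within 1%, and the diamond is the WRKY gene. Neighbours lie above and below 0 in all 4 panels, and 4 of the 5 neighbours of WRKY71 lie above 0 while WRKY71 lies at -0.47.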

How the data were processed

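Leaf mRNA of 2 genotypes was read in 1 library each. Per the labels' protocols, the libraries were made from poly-A RNA with inserts of about 500 bp and read from one end over 100 bp. The submitters' processing notes name Bowtie 0.12.7 and edgeR. Not given in the sources used here are the build, the strand setting, the handling of reads that match several places and the dispersion; unequal alignment of the genotypes was not tested.

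The deposited table of the authors' comparison gives 2 log2 columns per model, a mean log2 share of reads and a log2 ratio, per the file headers. The authors added a raw p-value and one adjusted over all models, with a largest adjusted p of 0.0499. Solving the 2 log2 columns gave whole reads for 100% of values within 0.0001 of a read; this step was checked on simulated data. No count model was fitted, because each genotype has 1 library.

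The model with most reads stood for a locus. Intervals were exact, Poisson for levels and Clopper-Pearson for ratios (SciPy 1.17.1, Python 3.11.15), and a count of 0 was given a floor of 3 reads. Reads copied by PCR are not independent, so intervals and floors cover counting error only. Members and lists were chosen with earlier results of these data known. All members were to be named, and of each list the locus with most reads, those with an absolute log2 ratio of at least 1 and at least the 4 largest in ratio. No likeness of pattern is defined over 2 libraries. Gene names come from field knowledge. Of 88 names, 23 were found on the same chromosome in RefSeq (assembly ASM3414082v1), WRKY24, WRKY62, WRKY71 and WRKY76 among them, and 5 belonged to a gene on another chromosome only, none of which was in the table. Alternatives were other scalings, limits on adjusted p, pseudocounts, models, fold thresholds and windows. The planned sequences were not shown, because no sequence table was used here.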

Additional observations from a re-analysis of the deposited data

How the results depend on the processing

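When all ratios are centred on their median, each gains 0.30, and scaling to the table's own totals adds 0.20. Both rest only on models called different, so neither is a scaling of the whole libraries. Centred, WRKY53 turned to 0.075, WRKY45 moved to -0.39 and WRKY71 to -0.16, so that 1 of the 4 genes was higher in library A and 3 were higher in B. With the table's totals WRKY71 moved to -0.27 and WRKY53 to -0.028. WRKY76 stayed within its counting interval under both, at -0.96 and -1.06, though no gene then reached an absolute log2 ratio of 1 when centred (0 in place of 1). At a threshold of 0.5 there were 2 such genes and at 2 there were 0. Pseudocounts of 0.1 and 1 RPM and the other models or the sum of models of WRKY71 left each ratio within its interval, and limits of 0.01 and 0.001 on adjusted p left all 4 genes. Other WRKY genes went to 1 higher in A and 1 higher in B at the limit of 0.001, and likewise with a filter at the table's median level. That filter also left out WRKY76, so that 3 of the 4 stress and defence genes remained, all higher in B. It left 0 signalling genes higher in A and 0 output genes on either side, because fewer loci were counted. Counting every model gave 6 signalling models higher in B, an alternative chosen after seeing the data. Neighbours numbered 2 higher in A and 2 higher in B within 100 locus numbers and 30 and 38 within 1000; without matching reads, also chosen after seeing the data, there were 9 and 9. No paired analysis was possible because there is only 1 library for each line. Depth limits WRKY76 most, at 121 reads.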
